A study of Homo sapiens with 44 samples.

Results

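The ATF4-CHOP stress genes described here are ATF4, DDIT3 (which encodes CHOP), CHAC1, TRIB3, ATF3, SESN2, DDIT4, INHBE, VLDLR and NUPR1. They were taken by symbol, and the 10 rows were found in every table among 19923 genes. The set was chosen by name with measured values in view, the log2 input changes of Kelly cells after 6 days, where CHAC1 and INHBE were among the largest falls. That contrast is therefore given as a description with no test, and so is every ratio that uses its libraries.

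The study treated human neuroblastoma cells with STM2457, an inhibitor of METTL3, the enzyme that writes N6-methyladenosine (m6A) on mRNA, and compared them with DMSO. Kelly and NGP are established lines of WT genotype in the labels, and the labels give both as MYCN-amplified. Kelly cultures were exposed to 8 µM of the inhibitor, or to DMSO, during 1 day or 6 days, and NGP cultures during 6 days. Kelly tumours growing subcutaneously in nude mice received peritoneal injections of 50 mg/kg STM2457 or vehicle once a day for 14 days, and the vehicle group carries the name DMSO in the labels.

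Every condition has input libraries, which are RNA-seq of sonicated mRNA, and meRIP libraries (below RIP), which hold what an m6A antibody bound. The 44 libraries form 16 groups of 3, or of 2 in the xenograft. No label says whether replicates came from separate cultures or animals, so p-values measure the spread between these libraries only, which may be technical.

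The integrated stress response is a pathway in which kinases that sense amino acid shortage, misfolded proteins in the endoplasmic reticulum (ER), haem lack or viral RNA phosphorylate the translation factor eIF2alpha. General translation then slows while the mRNA of ATF4 is translated more, and ATF4, a basic leucine zipper (bZIP) transcription factor, switches on genes of amino acid supply and further factors such as CHOP. CHOP and ATF4 act together on a late set of targets, among them CHAC1 and TRIB3, and prolonged activity of this arm is known to promote cell death. RNA levels do not show the phosphorylation or translation steps.

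Inputs held 24.07 to 26.56 M assigned fragments in Kelly at 1 day, 5.77 to 31.49 M at 6 days, 5.49 to 11.6 M for NGP, and 2.14 to 7.27 M for the tumours. The RIP libraries held 4.68 to 36.5 M. The biological coefficient of variation shared by the genes of an experiment was 0.0725, 0.0913, 0.24 and 0.448 over the inputs in the same order, so the xenograft gave the least precise changes. Of 12 neuroblast markers, 11 or 12 stood at 10 CPM or more in every group, whereas 1 to 3 of 12 markers of fibroblasts, vessels and blood did. The sum of those 12 was 86.0 to 192 CPM over the inputs, PDGFRB was the highest of them in every group, and the red-cell gene HBB was at 0 in 7 of the 8 input groups. Counts were made on human genes, so these levels do not show how many mouse host cells the tumours held. METTL3 itself stood between 54.2 and 103 CPM in the group means and passed the test in no input comparison. In bulk RNA, fewer cells expressing a gene and less of its RNA per cell cannot be told apart.

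The RefSeq promoter table (GRCh38.p14, 250 bases before to 50 after a start) held 13 windows of 8 of the 10 genes; INHBE and NUPR1 were not matched. The core of the element at which ATF4 binds together with a C/EBP factor, TGATGNAA on either strand, was found in CHAC1 and ATF3. Of all 35116 windows 3.62% held it. Counted from the start, the CHAC1 match lies at positions -209 to -202 on the reverse strand, and the ATF3 match at -191 to -184 on the strand of the gene. The windows of the 8 genes held no TGACGTCA (the palindromic cAMP response element), TGACGCAA (its ATF-C/EBP variant) or TGACGTGG (an element of XBP1 and ATF6), which stood in 1.85%, 0.51% and 0.73% of all windows on either strand. The matches share no bases with another of these motifs, a match is not a binding site, and its absence says only that the letters are not in these windows. The stretches are shown, in GRCh38 on the plus strand with the core in capitals, because these 2 genes are the carriers of the core, and CHAC1 had the largest called fall of the set in Kelly at 1 day. CHAC1 is at chr15:40953251-40953280, inside the annotated first exon of a longer CHAC1 transcript in GENCODE 44, and ATF3 at chr1:212565176-212565263, before the first annotated exon.
CHAC1: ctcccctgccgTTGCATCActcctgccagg
ATF3: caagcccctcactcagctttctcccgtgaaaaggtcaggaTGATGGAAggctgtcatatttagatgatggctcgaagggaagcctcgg

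Levels are given as CPM, the share of a library's counts, scaled within each experiment by TMM factors, a correction for library composition. Per kilobase of gene, ATF4 was the highest of the 10 genes with DMSO in each experiment, from 224 ± 8.26 CPM per kb (SD, n = 3) in Kelly at 1 day to 552 ± 8.67 in Kelly at 6 days. DDIT4, an mTORC1 inhibitor, had rank 2 in all 4 experiments, at 31.1 ± 4.05 CPM per kb in Kelly at 1 day and 108 ± 2.64 at 6 days. For Kelly at 1 day SESN2, DDIT3, TRIB3, CHAC1, ATF3, VLDLR, INHBE and NUPR1 followed in that order, and only TRIB3 (5.57 ± 0.378) and CHAC1 (4.89 ± 0.476) overlapped between libraries among neighbours. At 6 days CHAC1 had rank 3, at 36.9 ± 1.41 CPM per kb, while in NGP it had rank 7 at 2.7 ± 0.49. In NGP the neighbours from TRIB3 down to SESN2 all overlapped. NUPR1, a small stress-induced nuclear protein, had 0 to 10 counts in every input and RIP library and at most 0.509 CPM, so it was tested nowhere.

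**Figure D1:**
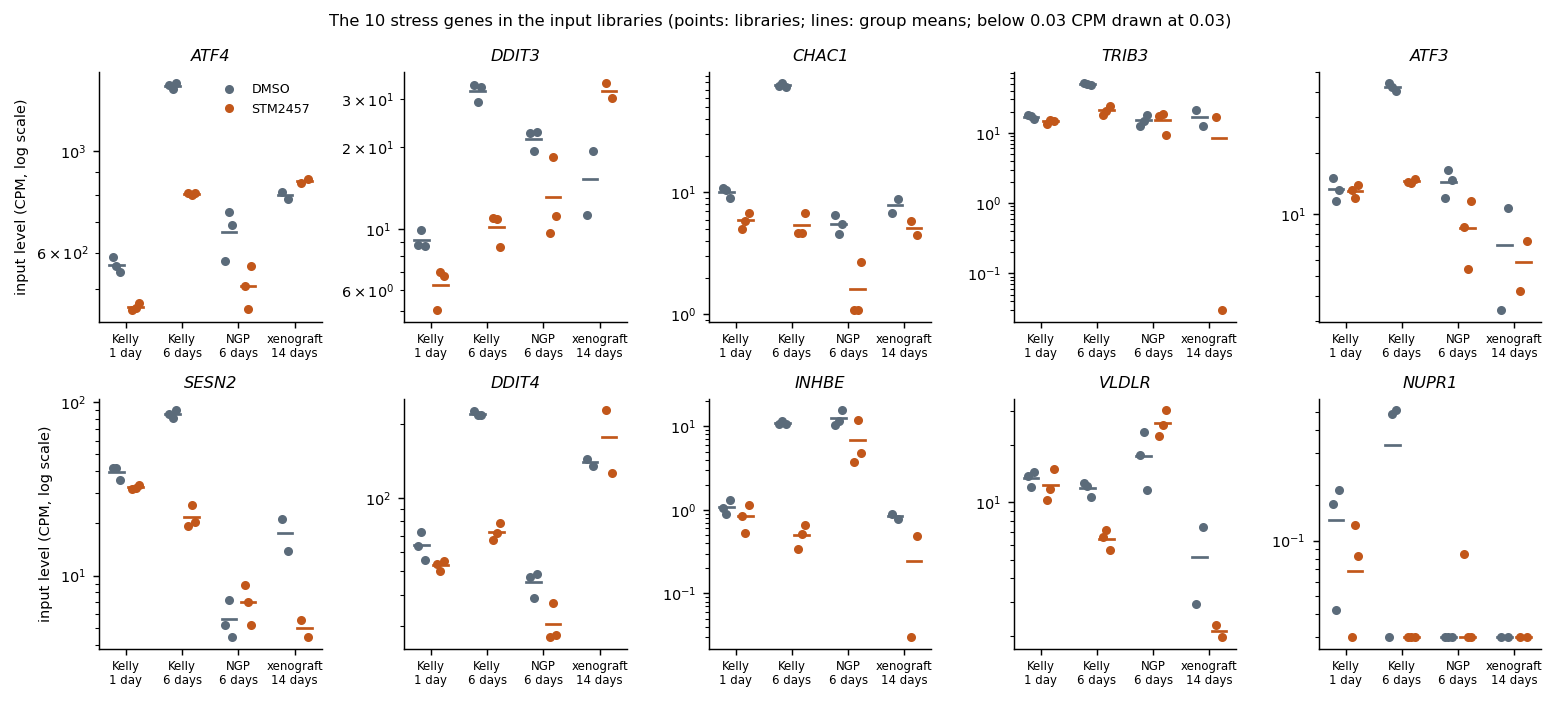
Level of each gene in every input library, in CPM on a log axis, by experiment and treatment; points are libraries, lines are group means, and values under 0.03 CPM are drawn at 0.03. The 3 DMSO libraries of Kelly at 6 days stand above those of Kelly at 1 day in 8 of the 10 panels, all but VLDLR and NUPR1, and the STM2457 libraries at 6 days stand below them in every panel but NUPR1.

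In Kelly cells after 1 day, all 9 genes that passed the low-count filter had a lower mean with STM2457, and 5 of the 9 fell: CHAC1, DDIT3, ATF4, SESN2 and DDIT4. Of all genes tested there, 8.06% fell. The largest of the 5 falls, of CHAC1, was 1.7-fold, and the smallest, of DDIT4, was 1.2-fold. The median log2 change of the 9 was -0.30, against 0.007 over all 13246 genes. The filter keeps a gene with enough counts in as many libraries as the smallest group holds. A gene can thus pass through 1 group alone, and the genes that passed are not the whole set.

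ATF4 (chr22:39519695-39522685), the transcription factor that drives the programme, had 586, 562 and 545 CPM in the DMSO libraries and 449, 455 and 466 CPM with STM2457. The groups did not overlap, and the fall was 1.24-fold (log2 -0.31, SE 0.0425, adjusted p = 0.000104 by the edgeR quasi-likelihood test with Benjamini-Hochberg adjustment). It kept the call without any single library, with log2 changes from -0.27 to -0.34. DDIT3 (chr12:57516588-57521737, minus strand) encodes CHOP, the bZIP factor induced by ATF4. It had 8.75, 9.92 and 8.66 CPM with DMSO and 5.05, 6.98 and 6.75 with STM2457, a fall of 1.46-fold (log2 -0.54, SE 0.156, edgeR adjusted p = 0.0224). The libraries with STM2457 were all lower, but the call was lost without DMSO replicate 2 (log2 -0.48, edgeR adjusted p = 0.0753) or STM2457 replicate 1 (log2 -0.41, edgeR adjusted p = 0.124). The exons of DDIT3 share 518 bases with those of AC022506.1, MARS1 and MBD6, where fragments were not assigned, so its level is uncertain; none of the other 9 shares exon bases with another gene in the deposited tables. ATF3 (chr1:212565334-212620777), a stress-induced bZIP factor of the same cascade, overlapped between groups, with 11.6 to 15.1 CPM against 12 to 13.9 CPM (log2 -0.03, SE 0.124).

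Among the effectors, CHAC1 (chr15:40952962-40956512), a gamma-glutamylcyclotransferase that degrades glutathione, had 10.8, 10.4 and 8.93 CPM with DMSO and 5.05, 5.87 and 6.84 with STM2457. The 3 treated libraries were below every control (log2 -0.76, SE 0.153, edgeR adjusted p = 0.00233), and the call held without each library in turn, with log2 changes from -0.66 to -0.88. TRIB3 (chr20:362835-397559), a pseudokinase that binds ATF4, CHOP and AKT, had 17.8, 17.2 and 15.6 CPM against 13.5, 15.5 and 14.9. Its groups did not overlap, but it missed the threshold (log2 -0.20, SE 0.109, edgeR adjusted p = 0.22).

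SESN2 and DDIT4 both restrain mTORC1, SESN2 as a leucine sensor and DDIT4 through the TSC complex. SESN2 (chr1:28259518-28282491) had 41.7, 41.9 and 35.5 CPM with DMSO and 31.8, 31.9 and 33.4 with STM2457, with no overlap (log2 -0.30, SE 0.0836, edgeR adjusted p = 0.0205). DDIT4 (chr10:72273924-72276036) had 63.3, 72.4 and 55.8 CPM against 53.4, 50.3 and 55.1 (log2 -0.27, SE 0.0831, edgeR adjusted p = 0.0321), and its lowest control, at 55.8 CPM, was next to its highest treated library, at 55.1. Both calls rest on single libraries. For SESN2, leaving out DMSO replicate 1 or 2 or STM2457 replicate 1 or 2 gave edgeR adjusted p values from 0.0669 to 0.088 at log2 changes of -0.26, -0.26, -0.28 and -0.29. For DDIT4, leaving out DMSO replicate 2 or any STM2457 replicate gave 0.0592 to 0.159, with log2 changes from -0.17 to -0.30. Fitting the 22 inputs together, with 1 estimate of the spread, called none of the 9 and 26 of all genes in Kelly at 1 day, with edgeR adjusted p = 0.202 for ATF4 and 0.278 for CHAC1 at log2 changes of -0.32 and -0.77.

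Neither the secreted nor the surface protein of the set was called. INHBE (chr12:57452323-57459280), the inhibin beta E chain, lies 57.3 kb from DDIT3 and stood at 0.883 to 1.32 CPM with DMSO and 0.53 to 1.16 with STM2457. VLDLR (chr9:2621787-2660056), a lipoprotein and reelin receptor, stood at 12.1 to 14.4 CPM against 10.3 to 15. Both overlapped between groups and missed the threshold, with log2 changes of -0.36 (SE 0.396) and -0.12 (SE 0.138). INHBE held 21 to 35 counts per library with DMSO and 13 to 28 with STM2457, so its missed threshold does not show a smaller change.

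After 6 days in Kelly cells the same 9 genes were all lower with STM2457, without overlap between libraries, as were 21.8% of all genes. This is the contrast used in choosing them; 14.7% of all genes tested fell there, which is given for scale only. INHBE had 10.7, 11.7 and 10.8 CPM with DMSO and 0.341, 0.518 and 0.661 with STM2457, a log2 change of -4.57 (SE 0.274). CHAC1 had 74.9, 78.8 and 73.2 CPM against 4.64, 4.66 and 6.78, a log2 change of -3.93 (SE 0.119). The fitted levels were 23.7-fold and 15.3-fold lower, while the next largest difference, of SESN2, was 3.89-fold. INHBE held 4 to 17 counts per library with STM2457 and 124 to 145 with DMSO, and passed the filter through its DMSO libraries. Its log2 change ran from -4.74 to -4.3 with a library left out. The fold of INHBE is thus less certain than that of CHAC1, which held 41 to 153 counts with STM2457.

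The transcription factors and TRIB3 were lower by smaller factors. ATF4 had 1396, 1364 and 1406 CPM with DMSO and 810, 800 and 809 with STM2457 (log2 -0.78, SE 0.0606). DDIT3 had 33.6, 29.1 and 33.2 CPM against 11, 10.9 and 8.6 (log2 -1.61, SE 0.122), and ATF3 44, 42.4 and 40.3 against 14.5, 14.2 and 15 (log2 -1.54, SE 0.0996). ATF4 thus had the smallest log2 difference of the 9, and the factors downstream of it had larger ones. TRIB3 had 50.8, 50.4 and 48.3 CPM against 17.9, 20.7 and 24.5 (log2 -1.29, SE 0.107).

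SESN2 had 85.6, 81.2 and 90.0 CPM against 19.4, 25.4 and 20.5 (log2 -1.96, SE 0.101), and DDIT4 227, 219 and 217 against 66.9, 71.7 and 78.8 (log2 -1.62, SE 0.0692). VLDLR had 12.6, 12.2 and 10.7 CPM against 6.61, 7.19 and 5.62 (log2 -0.83, SE 0.161). The median of the 9 log2 values was -1.61, and that of all 12773 genes was -0.005. No threshold enters the choice, which is by name but was made with this contrast in view, so these medians are a description only. VLDLR and ATF4 are the 2 genes nearest to 0.

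**Figure D2:**
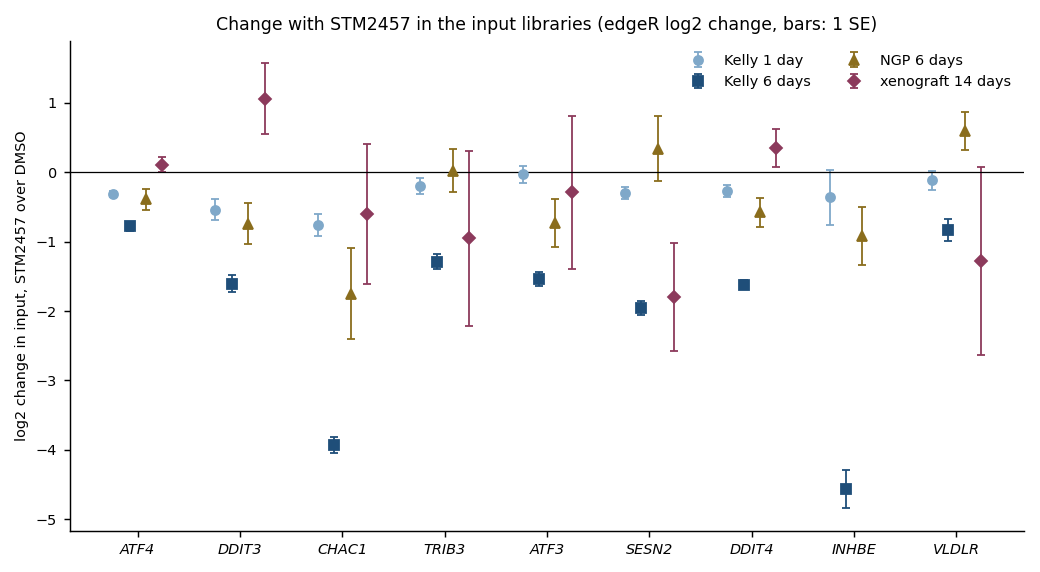
Log2 change of each gene with STM2457 over DMSO in the input libraries of the 4 experiments; symbols are edgeR estimates and bars 1 SE. The Kelly 6 day values, a description, run from -0.78 for ATF4 to -4.57 for INHBE, the Kelly 1 day values lie between -0.76 and -0.03, and the xenograft bars are the widest of the 4 for each gene tested there except ATF4, whose SE was 0.112 in the xenograft and 0.151 in NGP.

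The level with DMSO differed between the days in Kelly cells. From 1 day to 6 days the mean CPM of INHBE went from 1.09 to 11, of CHAC1 from 10.0 to 75.6, of DDIT4 from 63.8 to 221 and of DDIT3 from 9.11 to 32.0. ATF3 went from 13.3 to 42.2, TRIB3 from 16.9 to 49.9, ATF4 from 564 to 1388 and SESN2 from 39.7 to 85.6 CPM. The ratios of 6 days over 1 day ran from 2.16 for SESN2 to 10.1 for INHBE in these 8 genes. VLDLR had a ratio of 0.883, which was 1.12 when 1 set of TMM factors was computed over all inputs. With those factors the ratio of CHAC1 was 9.6 and of INHBE 12.9.

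The median ratio of the 9 genes was 3.16, against 0.784 over 12761 genes, and with the factors over all inputs 4.03 against 0.999. The Kelly 6 day DMSO libraries are part of the contrast used in choosing the genes, so this comparison is a description only. Of all those genes, 15% had a ratio above 2, or 20.8% with the factors over all inputs. The other ATF4 targets, 30 genes of amino acid synthesis, transport and tRNA charging for the most part, had a median ratio of 1.09, with 8 of 30 above 2. ER chaperones had a median of 0.781, with 3 of 20 above 2. The bZIP partners had a median of 1.88, with 8 of 17 above 2, or 2.39 and 10 of 17 with the factors over all inputs. Of the CHOP effectors 3 of 6 were above 2 (median 1.34), and of the paralogs 4 of 11 (median 0.94).

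With STM2457, CHAC1 stood at 5.92 CPM at 1 day and 5.36 at 6 days, INHBE at 0.848 and 0.507, ATF3 at 13 and 14.6, and DDIT4 at 52.9 and 72.5. The 6 day level with STM2457 was 0.466 to 1.43 times the 1 day level with DMSO over the 9 genes, with INHBE lowest and ATF4 highest. VLDLR was lower at 6 days with both, from 12.3 to 6.48 CPM with STM2457 and from 13.4 to 11.8 with DMSO. SESN2, like CHAC1 and INHBE, was lower at 6 days with STM2457, from 32.3 to 21.8 CPM. ATF4 went up with STM2457 from 457 to 806 CPM, DDIT3 from 6.26 to 10.2 and TRIB3 from 14.6 to 21.0. The 1 day and 6 day libraries stand in separate folders of the file headers, so experiment, day in culture and any batch cannot be told apart, and these ratios carry no test.

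In NGP cells none of the 9 genes that passed the filter was called by edgeR at an adjusted p under 0.05, where 4.23% of all genes were called; 7 of the 9 and 2154 of all 12289 genes passed an unadjusted p of 0.05, and DESeq2 called 0 of the 9 as well. CHAC1 had 6.55, 4.54 and 5.54 CPM with DMSO and 1.09, 1.08 and 2.68 with STM2457. The libraries did not overlap, and the log2 change was -1.75 (SE 0.657, edgeR adjusted p = 0.146). ATF4 had 575, 735 and 688 CPM against 508, 452 and 561 (log2 -0.39, SE 0.151, edgeR adjusted p = 0.158), and DDIT4 47.4, 39 and 49.0 against 26.9, 37.1 and 27.4 (log2 -0.58, SE 0.21, edgeR adjusted p = 0.129). Both were lower in every treated library. The fit of all 22 inputs, with 1 shared spread, called these 3 genes and no other of the set, among 1266 of all genes.

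DDIT3 had 22.4, 19.3 and 22.6 CPM against 9.69, 18.3 and 11.2 in NGP (log2 -0.74, SE 0.292), and ATF3 12.1, 16.5 and 14.7 against 8.68, 5.38 and 11.6 (log2 -0.73, SE 0.347). INHBE had 10.5, 11.7 and 15.6 CPM against 3.79, 12 and 4.81 (log2 -0.92, SE 0.418). STM2457 replicate 2 is the one treated library of INHBE within the range of the controls; without it the log2 change was -1.55 and edgeR called it. TRIB3 was within 1 SE of 0 (log2 0.02, SE 0.313), with 12.5 to 18 CPM against 9.43 to 18.8.

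SESN2 and VLDLR had higher means with STM2457 in NGP. SESN2 had 4.41 to 7.19 CPM with DMSO and 5.18 to 8.84 with STM2457 (log2 0.34, SE 0.465), and VLDLR 11.6 to 23.3 against 22.2 to 30.4 (log2 0.59, SE 0.275, edgeR adjusted p = 0.267). Both overlapped between groups.

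The difference of the responses of NGP at 6 days and Kelly at 1 day was tested as an interaction over the inputs of both. EdgeR called 0 of the 9 genes, with 1.1% of all genes called; 2 of the 9, SESN2 and VLDLR, and 1978 of all 13773 genes passed an unadjusted p of 0.05, and DESeq2 called 0 of the 9. The difference for CHAC1 was -0.98 on the log2 scale (SE 0.476), and line and day both differ between these experiments. Kelly at 6 days was not used, since it served to choose the genes.

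In the xenograft edgeR called none of the 8 genes that passed the filter and 0 of all 11329 (0.0%); 1 of the 8, SESN2, and 968 of all genes passed an unadjusted p of 0.05, and DESeq2 called 0 of the 8. DDIT3 had 11.3 and 19.3 CPM with DMSO and 34.2 and 30.1 with STM2457, without overlap (log2 1.06, SE 0.512, edgeR adjusted p = 0.608). SESN2 had 21.2 and 13.8 CPM against 5.53 and 4.44, also without overlap (log2 -1.80, SE 0.773, edgeR adjusted p = 0.571). These point in opposite directions, and over all genes both treated libraries lay below both controls for 21.5% and above them for 19.5%. The fit of all 22 inputs called these 2 genes among 2551 of all genes. Without STM2457 replicate 1 edgeR called SESN2 (log2 -1.97) and TRIB3, whose remaining treated library had 0 counts, among 1933 of all genes; the spread then comes from the DMSO libraries, and the lone treated library is assumed to vary like them.

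ATF4 had 815 and 786 CPM against 852 and 870 in the tumours, with a log2 change of 0.11 (SE 0.112). DDIT4 had 144 and 135 CPM against 228 and 126 (log2 0.35, SE 0.276); without STM2457 replicate 1 the value was -0.15, and without STM2457 replicate 2 it was 0.70 and called by edgeR, with 654 of all genes. TRIB3 was at 16.9 CPM in STM2457 replicate 1 and listed with 0 counts in STM2457 replicate 2. CHAC1 (6.78 and 8.87 against 5.86 and 4.44 CPM), ATF3 (3.39 and 10.7 against 4.23 and 7.4) and VLDLR (2.94 and 7.43 against 2.28 and 1.97) had log2 changes of -0.60, -0.29 and -1.28, each within 1 SE of 0. INHBE did not pass the filter, with 0.904 and 0.782 CPM against 0 and 0.493. The standard errors of these 8 log2 changes ran from 0.112 for ATF4 to 1.35 for VLDLR, which sets what could be detected in the tumours.

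The antibody pulldown was measured as the ratio of RIP over input. With DMSO in Kelly cells at 1 day, 5 of the 9 genes were enriched (log2 RIP over input of 1 or more): INHBE, CHAC1, DDIT4, DDIT3 and TRIB3. Of all genes, 26.3% were. ATF4 was called below 0, as were 34.3% of all genes, and SESN2, ATF3 and VLDLR lay below 0 without passing the test. So the set divides, and its leading transcription factor lies below 0.

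INHBE had 11.9, 11.7 and 11.4 CPM in the RIP libraries, against 0.883 to 1.32 in the inputs, a ratio of 11.3-fold (log2 3.50, SE 0.511, edgeR adjusted p = 4.17e-05). CHAC1 had 67.6, 71.0 and 57.8 CPM in RIP, a ratio of 6.92-fold (log2 2.79, SE 0.21, edgeR adjusted p = 6.54e-08). DDIT4 had 288, 263 and 289 CPM, a ratio of 4.66-fold (log2 2.22, SE 0.138, edgeR adjusted p = 9.4e-09). Every RIP library of these 3 genes was above every input. DDIT3 had a log2 ratio of 1.72 (SE 0.343) and TRIB3 of 1.60 (SE 0.206), with edgeR adjusted p values of 0.000603 and 1.36e-05. ATF4 had 345, 349 and 345 CPM in RIP, below all its inputs (log2 -0.62, SE 0.0694, edgeR adjusted p = 3.49e-06). Among all genes these log2 ratios stand at the percentiles 98.8 for INHBE, 95.1 for CHAC1, 89.4 for DDIT4 and 41.2 for ATF4.

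The ratios of Kelly cells at 6 days, given as a description, were 3.32 for INHBE, 2.48 for CHAC1, 2.14 for DDIT4, 1.22 for TRIB3 and 0.04 for DDIT3 on the log2 scale with DMSO. DDIT3 was thus at 1.02-fold, against 3.3-fold at 1 day, and the other 4 genes stayed above a log2 ratio of 1. ATF4 was at -0.78, SESN2 at -0.62, ATF3 at -0.83 and VLDLR at -0.37. Of all genes 25.8% were enriched there.

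In NGP with DMSO the pattern was another one: 3 of the 9 genes were enriched by the same rule, against 20.9% of all genes. INHBE had 49.0, 23.4 and 26.9 CPM in RIP (log2 1.33, SE 0.362, edgeR adjusted p = 0.00334), DDIT4 112, 93.3 and 95.5 (log2 1.09, SE 0.196, edgeR adjusted p = 5.98e-05) and ATF4 1223, 1561 and 1701 (log2 1.11, SE 0.184, edgeR adjusted p = 2.27e-05). All RIP libraries of these 3 genes were above all inputs. CHAC1 had 8.59, 6.35 and 4.38 CPM in RIP, overlapping its inputs (log2 0.15, SE 0.48), and TRIB3 12.3, 12.6 and 6.17 (log2 -0.60, SE 0.352). SESN2 was depleted (log2 -1.35, SE 0.53, edgeR adjusted p = 0.0342), as were 19.0% of all genes at a log2 ratio of at most -1, a call that was lost without any 1 of DMSO RIP replicates 1 to 3 or DMSO input replicates 1 and 2, with log2 ratios from -1.14 to -1.50.

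**Figure D3:**
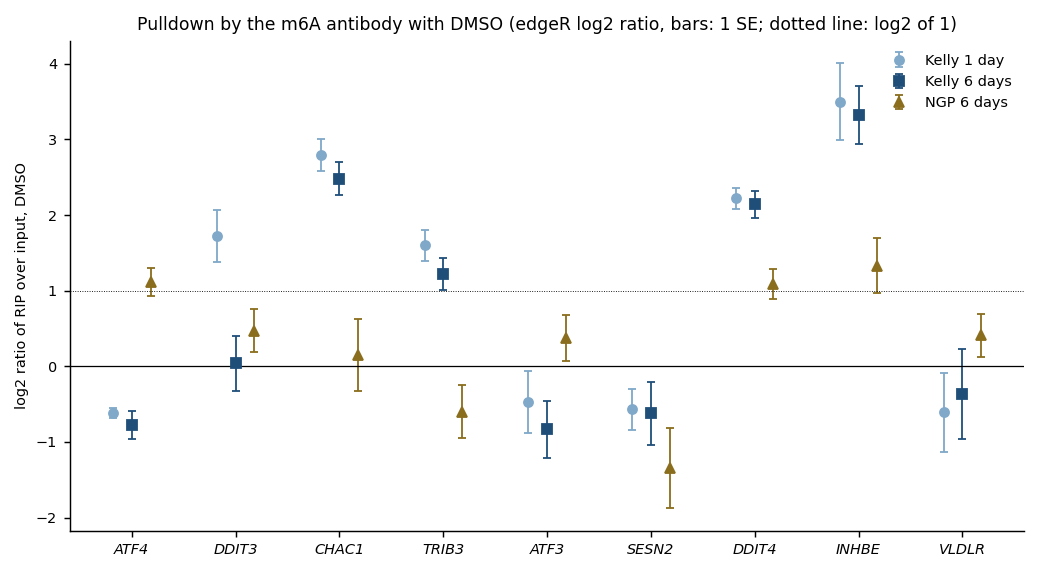
Log2 ratio of RIP over input with DMSO for each gene in the 3 culture experiments; symbols are edgeR estimates, bars 1 SE, and the dotted line marks a log2 ratio of 1. INHBE and DDIT4 lie above the dotted line in all 3, CHAC1 and TRIB3 in both Kelly experiments only, and ATF4 in NGP only.

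The difference of these ratios between NGP and Kelly at 1 day was tested after both had been seen. EdgeR called 7 of the 9 genes, where 49.3% of all genes were called in either direction. ATF4 was pulled down more in NGP (difference of log2 ratios 1.61, SE 0.202, edgeR adjusted p = 1.19e-05). CHAC1 was pulled down less (-2.78, SE 0.357, edgeR adjusted p = 1.47e-05), and so were TRIB3 (-2.32), INHBE (-2.28), DDIT3 (-1.38), DDIT4 (-1.26) and SESN2 (-0.89). The SESN2 call was lost without any single NGP library and without 4 of the 6 Kelly libraries, with differences from -0.51 to -0.93, and the other 6 calls held without each library. For ATF3 and VLDLR the differences were 0.72 and 0.91 and missed the threshold; VLDLR was called without NGP DMSO input replicate 2, at 1.32. Line, day and experiment cannot be told apart here.

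The xenograft RIP libraries were uneven. With DMSO, DDIT3 had 20.7 CPM in RIP replicate 1 and 0 counts in RIP replicate 2, ATF3 was at 0 in both, and SESN2 was at 0 and 10.6 CPM. DDIT4 had 431 and 460 CPM against inputs of 144 and 135, without overlap (log2 1.66, SE 0.456, edgeR adjusted p = 0.0769). EdgeR called 0 of the 8 genes and 3.75% of all genes; DESeq2 called DDIT4 and ATF3 among 2168 of all genes, and 2 of the 8 and 3015 of all 12626 genes had an unadjusted p under 0.05. Without STM2457 RIP replicate 1 or 2, which share the estimate of spread, edgeR called DDIT4 at 1.66, and without replicate 1 ATF3 as well, where 2154 and 2192 of all genes were called.

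The sequence GGACT, a core of the motif at which METTL3 methylates RNA, was counted on the sense strand of the longest GENCODE 44 transcript of each gene. SESN2 had 7 matches (2.02 per kb), DDIT4 3 (1.72 per kb), TRIB3 4 (1.70 per kb), CHAC1 1 (0.66 per kb), INHBE 2 (0.81 per kb), ATF4 2 (0.99 per kb) and DDIT3 0. The median over 19676 genes was 0.92 per kb. The density thus did not follow the order of pulldown in Kelly cells at 1 day, where INHBE and CHAC1 led and SESN2 was below 0. A match is not a methylated site.

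With STM2457 the ratio of RIP over input fell for 1 of the 9 genes in Kelly cells at 1 day, DDIT4, where it fell for 7.62% of all genes. Its RIP libraries went from 288, 263 and 289 CPM to 140, 97.7 and 137, while its inputs stood at 55.8 to 72.4 and 50.3 to 55.1. The change of the log2 ratio was -0.86 (SE 0.188, edgeR adjusted p = 0.00732), and it held without each library in turn, with values from -0.71 to -0.95. TRIB3 had 50.4, 49.0 and 44.9 CPM in RIP with DMSO and 26.6, 19.7 and 34.7 with STM2457, with no overlap (change -0.59, SE 0.286, edgeR adjusted p = 0.191); without STM2457 RIP replicate 3 it was -0.81 and called. CHAC1 had 34.7, 38.7 and 53.8 CPM with STM2457, lower than with DMSO in about the same measure as its inputs (change 0.17, SE 0.28). INHBE overlapped, at 6.83, 22.4 and 14.5 CPM.

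The scale of this change rests on the reference. TMM factors set the typical gene near 0; with RIP factors taken from the 13 mitochondrially encoded mRNAs instead, the median of all genes moved from -0.03 to -1.47 in Kelly at 1 day, and 61.3% of all genes were called. With that reference 7 of the 9 genes were called, INHBE turned to -0.74 and DDIT4 stood at -2.29. Relative to that median DDIT4 was at -0.83, TRIB3 at -0.56 and CHAC1 at 0.20, near the values with TMM.

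At 6 days in Kelly, as a description, RIP levels were lower along with the inputs. CHAC1 had 460, 417 and 342 CPM in RIP with DMSO and 31.8, 41.1 and 27.3 with STM2457, and INHBE 109, 96.7 and 116 against 4.02, 11 and 6.58. Their ratios to input changed by 0.43 (SE 0.302) and 0.83 (SE 0.531) on the log2 scale, or by -1.67 and -1.39 with the mitochondrial reference. TRIB3 stood apart: its RIP libraries had 103, 103 and 131 CPM with DMSO and 9.66, 12.6 and 9.07 with STM2457, and its ratio changed by -1.99 (SE 0.308). DDIT4 had 924, 928 and 982 CPM in RIP against 170, 214 and 140, and its ratio changed by -0.64 (SE 0.236). For TRIB3 and DDIT4 the direction was the same with the mitochondrial reference, at -4.28 and -2.86.

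**Figure D4:**
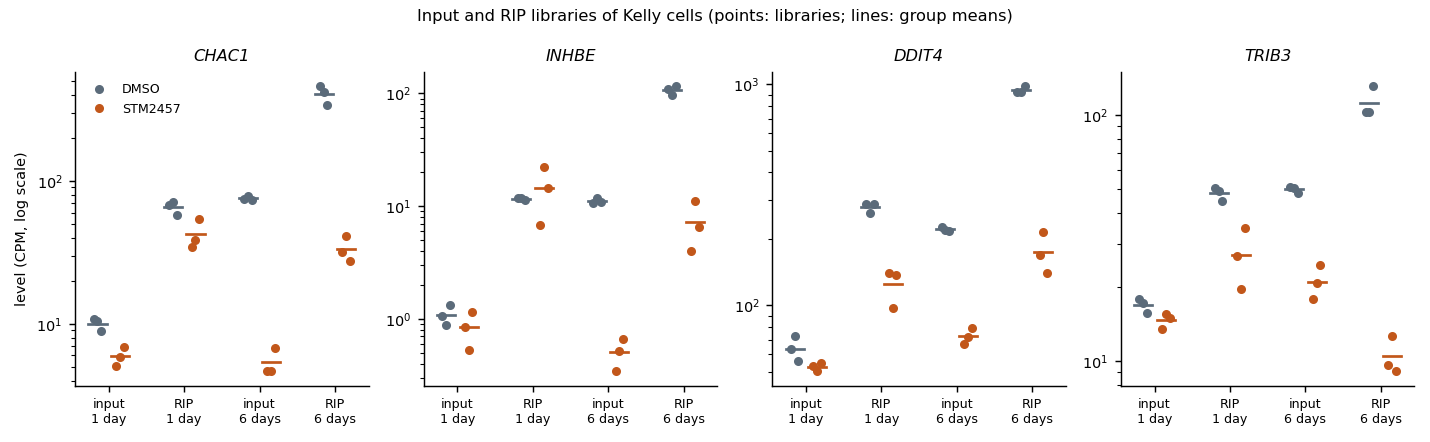
Levels of CHAC1, INHBE, DDIT4 and TRIB3 in the input and RIP libraries of Kelly cells at 1 and 6 days, in CPM on a log axis; points are libraries and lines group means. At 6 days the treated libraries lie below the DMSO libraries in input and RIP for all 4 genes, and TRIB3 has RIP levels of 9.07 to 12.6 CPM below its treated inputs of 17.9 to 24.5 CPM.

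In NGP and in the xenograft no change of the ratio was called by edgeR for any of the genes or over all genes (0.0%); 764 of 13088 genes in NGP and 809 of 12626 in the xenograft passed an unadjusted p of 0.05, and DESeq2 called 0 of the set in both. In NGP 2 of the 9 had an unadjusted p under 0.05. TRIB3 was at 5.73, 3.02 and 4.21 CPM in RIP with STM2457, below all DMSO libraries (change -1.25, SE 0.503, edgeR adjusted p = 0.839), and CHAC1 at 5.45, 3.32 and 9.05 overlapped them (change 1.65, SE 0.703, edgeR adjusted p = 0.839).

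The wider programme was read from lists of genes by role, which were also chosen with earlier results known. Of 30 other ATF4 targets tested in Kelly at 1 day, 15 fell and 2 rose, with a median log2 change of -0.25; of all genes, 8.06% fell and 9.41% rose there. STC2, a secreted glycoprotein hormone, and SLC7A11, the cystine transporter, had the largest falls of this list (-0.81, SE 0.147, edgeR adjusted p = 0.00108; -0.76, SE 0.144, edgeR adjusted p = 0.00146), close in size to that of CHAC1. LONP1 and SESN3 rose. At 6 days, described only, 27 of 30 were past the threshold downward and 1 upward with a median of -0.97, led by STC2 at -3.55 and SLC7A11 at -2.79. Over all genes 14.7% were past it downward there, and 3396 of 12773 in either direction. In NGP 1 of 29 fell, STC2 again (-1.53, SE 0.201, edgeR adjusted p = 3.94e-05), and 1 rose, JDP2 (1.20), where 2.16% of all genes fell and 2.07% rose. In the xenograft edgeR called 0 genes of any list.

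Upstream of ATF4, the 12 genes of the eIF2alpha arm (its kinases, phosphatase subunits and the exchange factor eIF2B) gave 3 falls and 1 rise in Kelly at 1 day and none in NGP. Among all genes 8.06% fell and 9.41% rose in Kelly at 1 day, and 4.23% were called in NGP. EIF2B3 and EIF2B4, subunits of eIF2B, fell by 0.37 and 0.30 on the log2 scale at 1 day, and EIF2B2 rose by 0.27. Median changes were near 0 in all 4 experiments, from -0.03 to 0.11. Of the bZIP partners, 3 of 16 rose at 1 day, among them JUND (0.67, SE 0.0962, edgeR adjusted p = 0.000141) and CEBPG (0.36, SE 0.0745, edgeR adjusted p = 0.00304), and none fell. At 6 days, described only, ATF5 (-1.07) and CEBPB (-0.86) were the lowest of 17.

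ER chaperones and sensors belong to the other arms of the unfolded protein response. In Kelly at 1 day 8 of 20 fell and 1 rose with a median of -0.09, CRELD2 and DNAJC3 having the largest falls (-0.44 and -0.41). In NGP 1 of 20 fell, HSP90B1 (-0.61, SE 0.154, edgeR adjusted p = 0.0235), and the median was -0.30, with 16 of 20 below 0. The shares of all genes were 8.06% down and 9.41% up in Kelly at 1 day, and 2.16% down in NGP. At 6 days in Kelly 10 of 20 were past the threshold downward, with a median of -0.23 and XBP1 and ERN1 lowest at -1.0 and -1.01. Of the 6 genes known as CHOP effectors, 1 fell at 1 day, the death receptor gene TNFRSF10B (-0.17), and 4 were past the threshold downward at 6 days. Over all genes the downward share in Kelly at 6 days was 14.7%.

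DDIT4 and VLDLR also respond to hypoxia, and SESN2 to p53, so genes of those responses were counted. Of the hypoxia genes, 9 of 16 fell and 1 rose at 1 day (median -0.34). At 6 days 12 of 18 were past the threshold downward (median -0.54), led by CA9 at -3.03 and ADM at -2.97, against 14.7% of all genes. In NGP 1 of 17 fell, LDHA, and 1 rose, ADM (3.58, SE 0.519, edgeR adjusted p = 0.000139). Of the p53 targets 2 of 16 fell at 1 day and 1 of 14 in NGP; CDKN1A, the cyclin-dependent kinase inhibitor p21, fell in both (-0.81, SE 0.0605, edgeR adjusted p = 2.21e-07; -1.73, SE 0.226, edgeR adjusted p = 3.42e-05). Of the mTORC1 regulators 4 of 17 fell and 2 rose at 1 day. Over all genes 8.06% fell and 9.41% rose in Kelly at 1 day, and 2.16% fell and 2.07% rose in NGP. The part of hypoxia or p53 genes in the changes of DDIT4, VLDLR and SESN2 was not tested.

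**Figure D5:**
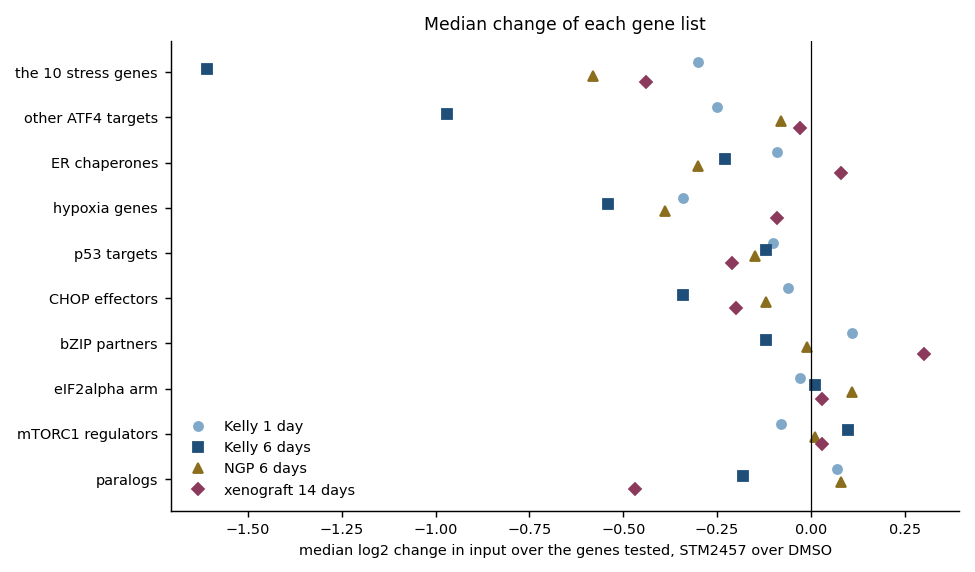
Median log2 change in input with STM2457 over DMSO for the 10 stress genes and 9 other lists, over the genes of each list that were tested, by experiment. In Kelly at 6 days, a description, the stress genes stand at -1.61, the other ATF4 targets at -0.97 and the eIF2alpha arm at 0.01.

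The paralogs of the 10 genes were counted as well. TRIB2, a paralog of TRIB3, rose from 125 to 165 CPM in Kelly at 1 day (log2 0.40, SE 0.0523, edgeR adjusted p = 5.5e-05) and from 129 to 238 CPM in NGP (log2 0.89, SE 0.155, edgeR adjusted p = 0.00103). SESN3, a paralog of SESN2 that is also on the list of other ATF4 targets, rose at 1 day (log2 0.35, SE 0.094, edgeR adjusted p = 0.0146). Of 11 paralogs tested, these 2 were the calls at 1 day, and in NGP the calls were TRIB2 and JDP2, which is on both lists as well. All of these calls were rises, and 9.41% of all genes rose in Kelly at 1 day and 2.07% in NGP. At 6 days in Kelly, described only, 4 of 11 were past the threshold downward and 3 upward, with JDP2 (-1.15) and ATF5 (-1.07) the lowest of the 4. Over all genes 14.7% were past it downward, and 3396 of 12773 in either direction. CHAC2, a paralog of CHAC1, and LRP8, a paralog of VLDLR, passed the test in no experiment. In Kelly at 1 day their log2 changes were 0.33 and 0.07.

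At the median pair, shared variation between replicates was small in this set, but single pairs ranged widely. Deviations of log2 CPM from the group means were correlated over the 22 inputs for the 8 genes of at least 2 mean log2 CPM. The median Pearson r of the 28 pairs was 0.07, with a range from -0.57 to 0.79, against 0.001 over all pairs of 10833 genes. TRIB3 and DDIT4 were the highest pair, with the xenograft inputs included, where TRIB3 had 0 counts in STM2457 replicate 2. Without the xenograft inputs the median was -0.04, with a range from -0.7 to 0.84. The 5 genes whose deviations were most like the mean of these 8 were SLC35A4, FN1, TMEM234, IRS1 and KMT5A, at r of 0.94 to 0.95 over 22 libraries and 0.46 to 0.60 without the xenograft. These points share libraries and depth, and the values are descriptions.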

How the data were processed

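The authors deposited 1 table of raw fragment counts per gene for each of the 44 libraries. Per the file headers, these counts of read pairs in exons came from featureCounts 1.5.3, summed by gene name, using GENCODE 33 protein-coding genes on GRCh38, and no strand option is named. The submitters' processing notes also name Trimmomatic 0.36, HISAT2 2.1.0 and Subread 1.5.3. Spike-in RNAs named in the labels were not analysed here.

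Tests were edgeR 4.0.16 quasi-likelihood fits (glmQLFit and glmQLFTest, R 4.3.3), two-sided, on all genes that passed filterByExpr (minimum count 10, minimum total 15), with TMM factors and Benjamini-Hochberg adjustment at 0.05. Each experiment was fitted alone. RIP over input and its change with treatment came from a fit of all 4 groups of an experiment, the change being the treatment by library type interaction. SEs follow from log2 change and F value. Fits were tested on simulated counts.

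The 10 genes and all lists were chosen with earlier results of these data known. Named beside them are METTL3, up to 2 rises and 2 falls per list and comparison, paralogs, and the 5 genes most like them. Alternatives were DESeq2 1.42.0, RLE size factors, replicate blocks, no low-count filter, all 22 inputs in 1 fit, a mitochondrial reference, CPM from raw totals, TMM over all inputs and each library left out. Replicate numbers were not used as pairs in the main fits: deviations of same-numbered DMSO and STM2457 inputs correlated at -0.34 to 0.15. Same-numbered input and RIP libraries correlated at -0.11 to 0.24. Such values cannot exclude that same-numbered libraries came from the same RNA. Over the 40 replicate pairs chi-square per degree of freedom was at least 2.73, so none was counted as a duplicate.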

Additional observations from a re-analysis of the deposited data

Results flagged for a closer look

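The ratio of RIP over input with DMSO differed between NGP at 6 days and Kelly at 1 day for 7 of the 9 genes by the interaction test, with 49.3% of all genes called. NGP minus Kelly was 1.61 for ATF4, -2.78 for CHAC1, -2.32 for TRIB3, -2.28 for INHBE, -1.38 for DDIT3, -1.26 for DDIT4 and -0.89 for SESN2 on the log2 scale. The comparison was chosen after the ratios had been seen. Line, day and experiment cannot be told apart in it, and the SESN2 call was lost without any single NGP library. In Kelly at 6 days, described only, the DDIT3 ratio was 0.04, below the 0.47 of NGP. Against Kelly at 6 days the other called genes kept their direction.

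ATF4 and DDIT3 stood out because all STM2457 inputs were above all DMSO inputs in the xenograft and below them in each culture experiment. The xenograft log2 change of ATF4 exceeded that of Kelly at 1 day by 0.41, of Kelly at 6 days by 0.89 and of NGP by 0.50. For DDIT3 the differences were 1.61, 2.67 and 1.80. These differences were not tested, and 21.5% and 19.5% of all genes had xenograft groups that did not overlap, downward and upward.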

How the results depend on the processing

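Single settings moved the counts of called genes. In Kelly at 1 day the 5 calls among the 9 genes became 0 in the fit of all 22 inputs and 3 with a replicate block (ATF4, DDIT3 and CHAC1), and 2 to 5 with a library left out; RLE factors, DESeq2 and no filter called the same 5. The replicate block also took the SESN2 calls for the ratio of RIP over input in NGP and in the NGP minus Kelly difference and changed no other call. In NGP the count of 0 became 3 in the fit of all inputs and 0 to 1 with a library left out, and in the xenograft 2 and 0 to 2. For the change of RIP over input in Kelly at 1 day, 1 call became 7 with the mitochondrial reference, and 1 to 2 with a library left out. For the xenograft ratio with DMSO, 0 became 2 with DESeq2, and 0 to 2 with a library left out. The Kelly 6 day median of -1.61 ran from -1.55 to -1.62 with a library left out. The summed level of the 10 genes with DMSO, 2.62 times higher in Kelly at 6 days than at 1 day, was 3.34 times with TMM over all inputs. Most of that sum is ATF4, at 564 and 1388 CPM, whose own ratio was 2.46. Ratios of single genes ran from 0.883 for VLDLR to 10.1 for INHBE. The median correlation of deviations turned from 0.07 to -0.04 without the xenograft. Signs turned with the mitochondrial reference for the ratio change of INHBE in Kelly at 1 day (-0.74) and of ATF3, INHBE and CHAC1 at 6 days (-1.30, -1.39 and -1.67), and without STM2457 replicate 1 for the DDIT4 input in the xenograft (-0.15 to 0.70 over the libraries left out); values within 1 SE of 0 were not compared for sign. The causes were not tested.

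Counts over all genes moved too: from 2315 in the Kelly 1 day inputs to 26 in the fit of all inputs, from 520 in NGP to 128 at the lowest and 1266 at the highest, from 0 in the xenograft inputs to 2551, and from 2345 ratio changes in Kelly at 1 day to 8382 with the mitochondrial reference. The count for the response difference, 152, ran from 72 to 584, that of the xenograft ratio with DMSO, 474, from 0 to 2192, and the counts of 0 ratio changes reached 11 in NGP and 158 in the xenograft. Depth limits INHBE, whose Kelly 1 day inputs held few counts, and the xenograft, where inputs held 2.14 to 7.27 M fragments; intervals of counting error were not used.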
